A study of Mus musculus with 24 samples.

Results

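Loss of the kinase CDK8 was examined in organoids of the mouse intestine by comparing 3 libraries labelled CDK8-KO (Cdk8-/- below) with 3 libraries labelled WT, 6 of the 24 RNA libraries of the study. The libraries were chosen by their titles, and each value is a number of reads counted on a gene. All 12 libraries of the genotype experiment (WT, Cdk8-/-, Cdk19-/- and double knockout, 3 each) came from organoids kept for 7 days in 600 nM 4-hydroxytamoxifen, which activates CreERT2. Cdk8-/- organoids were grown from mice carrying Cdk8 lox/lox and a CreERT2 transgene driven by the Villin promoter, which is active in the intestinal epithelium, and the sources differ on whether WT organoids carried Cdk8 lox/lox alleles without Cre or unmodified ones. The floxed allele was made in embryonic stem cells of another mouse strain and crossed to C57BL/6J mice. Cdk19-/- and double knockout organoids were made by lentiviral CRISPR/Cas9 with puromycin selection and expansion of single organoids. The age of the mice is not given in the sources used here. A second experiment treated organoids without a labelled knockout with DMSO or with Senexin B, an inhibitor of CDK8 and CDK19, for 16 h or 24 h (3 libraries each, labelled as RNA depleted of ribosomal RNA). Loss of Cdk8, presence of the Cre transgene and the origin of the organoid line cannot be told apart in the comparison of Cdk8-/- with WT.

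CDK8 and its paralog CDK19 are alternative kinases of the Mediator complex, which links transcription factors bound to DNA with RNA polymerase II. Either kinase pairs with cyclin C, MED12 and MED13 to form a detachable module of Mediator. The epithelium of the small intestine renews from Lgr5+ stem cells in the crypts, where Paneth cells secrete lysozyme and defensins, and its other main lineages are absorptive enterocytes, mucus-secreting goblet cells, enteroendocrine cells and tuft cells.

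The labels of the genotype libraries name an intestinal tissue but also the cell type 4T1, a mouse mammary carcinoma line. The counts went against the latter. Epcam, an epithelial adhesion molecule, reached 22407, 23619.9 and 24662 normalised counts in WT against 23075, 21581 and 23060.3 in Cdk8-/- libraries, and the 9 intestinal epithelial markers summed to between 138608 and 155774. The 9 mammary markers summed to at most 28.8 in any of the 6 libraries, and 5 of them were at 0 throughout. Between 14636861 and 15302225 reads were counted on genes in each of the 6 libraries. The share of reads that mapped to several places was 22.5 to 22.9% in WT and 21.7, 22 and 19.7% in Cdk8-/- replicates 1, 2 and 3. No pair of libraries matched within sampling noise, for which the chi-square of the counts per degree of freedom would be near 1. It was 2.44 between WT replicates 1 and 2, against 9.75 and 10.4 for the other WT pairs and 17.5 to 39.2 within Cdk8-/-, so these WT libraries were closer to each other than any other pair compared. The labels describe biological triplicates but not what separates them, so p-values measure the spread between these libraries.

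The targeted gene was examined first. Cre removes exon 2 of Cdk8 (chr5:146259505-146259580, plus strand, GRCm38, the second of 13 exons of transcript Cdk8-201). Its sequence is shown because the knockout rests on it, with codon 52, which encodes the catalytic lysine, in capitals:
Cdk8 exon 2: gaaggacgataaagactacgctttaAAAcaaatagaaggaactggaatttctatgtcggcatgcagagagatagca
The exon has 76 bases, 2.56% of the 2973 bases of the transcript and not a multiple of 3, so joining the exons on either side shifts the reading frame. Cdk8 (chromosome 5, 146231230 to 146302874) reached 634, 646 and 534 normalised counts in WT against 685, 856 and 634 in Cdk8-/- libraries, which overlapped. The counts sum all exons, so they cannot show whether exon 2 was lost and do not check the label. The other members of the kinase module differed little. Of its 7 genes 6 passed the filter, and 0 were called by edgeR or by DESeq2, with 1 higher and 1 lower at an unadjusted p under 0.05. Med13l, a paralog of Med13, had 849.6, 805 and 877 in WT and 706, 679 and 707 in Cdk8-/- (log2 fold change −0.28, standard error 0.109, edgeR adjusted p = 0.168). Reads were also compared on Esr1, the mouse oestrogen receptor gene, because CreERT2 contains an oestrogen receptor ligand-binding domain. They were 1.01, 4.11 and 6.26 in WT and 286, 301 and 312 in Cdk8-/- libraries (log2 fold change 6.27, standard error 0.289, edgeR adjusted p = 1.61e-07). They were 4.03, 2.92 and 2.96 in Cdk19-/- and 393, 318 and 298 in double knockout libraries, so high counts on Esr1 went with the labelled Cdk8 knockout. The counts sum the whole gene, and whether the reads came from the transgene was not tested.

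Of 15602 genes tested with edgeR, 804 (5.15%) were called at an adjusted p under 0.05, 436 (2.79%) upregulated and 368 (2.36%) downregulated in Cdk8-/- organoids. Upregulated genes had larger changes, with a median log2 fold change of 0.98 against −0.61 for downregulated genes. Of the 301 genes that changed more than 2-fold, 214 rose and 87 fell. Of the 804 genes, 803 had groups that did not overlap, as did 29.6% of all genes tested. The median log2 fold change over all genes tested was 0.01. Protein-coding genes made up 695 of the calls, 5.36% of those tested. The number of calls depended on single libraries. It fell to 196, 257 and 332 without WT replicate 1, 2 or 3, to 464 and 417 without Cdk8-/- replicate 1 or 3, and was 699 without Cdk8-/- replicate 2. DESeq2 called 1294 genes.

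To see which functions the calls fell into, 37 gene lists were counted, chosen with results of these data already known. Over all lists 94 of 770 genes were called, against 5.15% of all genes tested, with 71 upregulated and 23 downregulated. Apart from the list of 2 transgene-related genes, the largest shares of calls were in Paneth cell genes, YAP target and regenerative genes and p53 target genes, nearly all upregulated, whereas cytochrome P450 genes held more falls than rises. Genes of S phase, of G2 and mitosis, of ribosome biogenesis and of the interferon response had 0 calls in edgeR, and their unadjusted and DESeq2 counts are given with each list below.

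**Figure D1:**
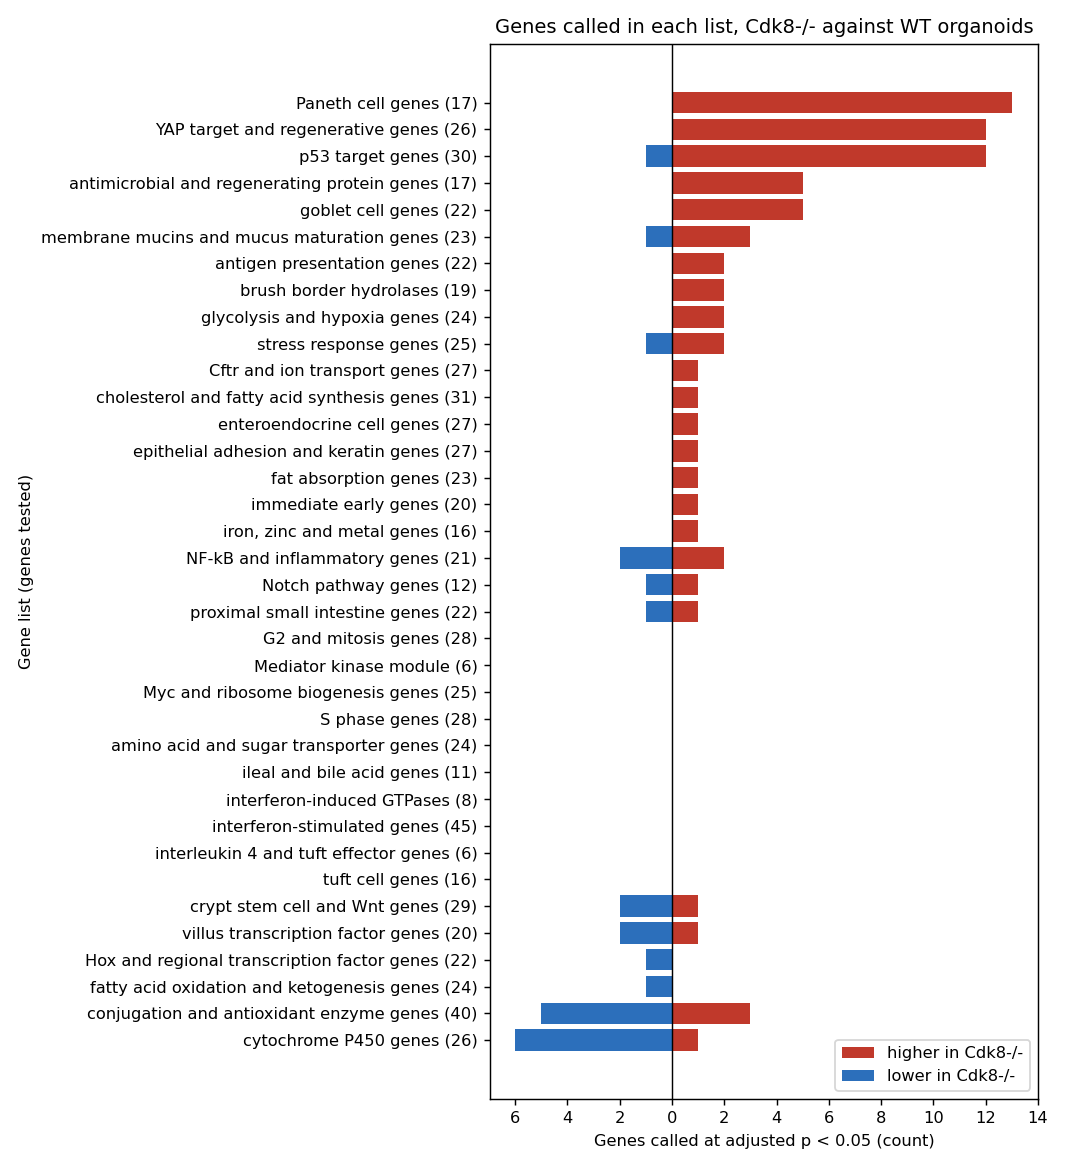
Number of genes called in Cdk8-/- against WT organoids (horizontal axis, upregulated to the right and downregulated to the left) in each gene list (vertical axis, genes tested in brackets). The Paneth cell list has 13 of 17 genes upregulated, and the cytochrome P450 list has 6 of 26 downregulated and 1 upregulated.

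Paneth cell genes rose together in Cdk8-/- organoids. Paneth cells sit between the stem cells at the crypt base and release lysozyme, alpha-defensins and other antimicrobial proteins. Of 18 genes in the list 17 passed the filter, and 13 of these (76.5%, against 5.15% of all genes) were upregulated, 0 were downregulated and 4 did not pass. The median log2 fold change of the 17 was 1.48. Promoters of 3 of these genes are shown because their transcripts rose together and because TCF factors of the Wnt pathway are known to act on genes of this lineage. They are read 5′ to 3′ from 250 bases before to 50 bases after the start of the gene (RefSeq, GRCm38.p6), with each match to CTTTGA or its reverse complement TCAAAG, the core of the TCF motif, in capitals:
Defa22 (chr8:21162027-21162326, plus strand): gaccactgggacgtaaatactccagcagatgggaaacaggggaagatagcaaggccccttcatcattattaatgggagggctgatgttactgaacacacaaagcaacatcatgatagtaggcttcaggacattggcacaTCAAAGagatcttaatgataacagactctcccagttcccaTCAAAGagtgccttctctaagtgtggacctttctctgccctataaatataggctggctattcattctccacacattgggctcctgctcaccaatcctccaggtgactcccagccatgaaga
Mmp7 (chr9:7691840-7692139, plus strand): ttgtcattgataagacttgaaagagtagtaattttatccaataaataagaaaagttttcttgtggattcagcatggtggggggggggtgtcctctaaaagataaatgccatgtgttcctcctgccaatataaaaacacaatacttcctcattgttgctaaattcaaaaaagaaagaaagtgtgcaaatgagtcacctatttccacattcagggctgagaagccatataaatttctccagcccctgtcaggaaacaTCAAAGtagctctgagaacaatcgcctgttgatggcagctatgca
Lyz1 (chr10:117292819-117293118, minus strand): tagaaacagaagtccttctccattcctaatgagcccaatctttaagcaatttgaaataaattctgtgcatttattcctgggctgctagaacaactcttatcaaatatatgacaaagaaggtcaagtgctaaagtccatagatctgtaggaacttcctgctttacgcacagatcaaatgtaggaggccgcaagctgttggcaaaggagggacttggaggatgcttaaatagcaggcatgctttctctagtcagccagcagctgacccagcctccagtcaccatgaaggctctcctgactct
The Defa22 window holds 2 matches, the Mmp7 window 1 and the Lyz1 window 0. Among the 12 of 18 Paneth cell genes with a promoter of this length in the table, 5 (41.7%) held a match, against 16.0% of all 32851 promoters. The 5 were Defa22, Defa23, Defa30, Mmp7 and Pnliprp2, and the defensin genes among them are close copies. Defa23 did not pass the filter and Pnliprp2 was not called. The upregulated genes Ang4, Itln1, Lyz1 and Mptx2 held no match. A match describes the letters of the window and is no evidence of binding.

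Lyz1 (chromosome 10, 117287797 to 117292868), which encodes Paneth cell lysozyme, reached 4975, 5087 and 5053 normalised counts in WT against 22651, 20081 and 18062 in Cdk8-/- libraries. Every Cdk8-/- library was far above every WT library, and the mean was 4.02-fold higher (log2 fold change 2.01, standard error 0.218, edgeR adjusted p = 4.81e-04). Defa22, an alpha-defensin gene (chromosome 8, 21162277 to 21163249), had 299, 270.0 and 299.5 in WT and 1595, 1226 and 907 in Cdk8-/- libraries (log2 fold change 2.10, standard error 0.304, edgeR adjusted p = 0.00289). Mptx2, which encodes a pentraxin of Paneth cells, had 91.5, 83.2 and 67.8 against 1061, 1275 and 424, with the third Cdk8-/- library lower than the other two but still above WT (log2 fold change 3.50, standard error 0.715, edgeR adjusted p = 0.0179). Itln1, the gene of the glycan-binding protein intelectin, had 7571, 8965 and 6721 against 25426, 19566 and 19956 (log2 fold change 1.48, standard error 0.217, edgeR adjusted p = 0.0032). Ang4, which encodes an antimicrobial ribonuclease, had 1073, 1278 and 864 against 4071, 2641 and 3204 (log2 fold change 1.62, standard error 0.269, edgeR adjusted p = 0.00693). These 3 rose as well without overlap between the groups. Mmp7, the gene of the protease that activates alpha-defensins, had 1110.0, 1349 and 816 against 4219, 2150.5 and 2842 (log2 fold change 1.49, standard error 0.332, edgeR adjusted p = 0.0253). Pla2g2a, which encodes a secreted phospholipase that kills bacteria, had 126, 142 and 161 against 639, 440.5 and 272 (log2 fold change 1.66, standard error 0.366, edgeR adjusted p = 0.0247). Gm14851, a gene of the defensin cluster, had 1051, 1238 and 1032 against 4672, 3432 and 4715 (log2 fold change 1.95, standard error 0.353, edgeR adjusted p = 0.0103).

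Of the genes just named, Lyz1, Defa22, Itln1 and Ang4 kept their call when any of the 6 libraries was left out. The highest adjusted p of the others was 0.0812 without WT replicate 1 for Mptx2, 0.104 without WT replicate 1 for Mmp7, 0.116 without WT replicate 1 for Pla2g2a and 0.0589 without WT replicate 1 for Gm14851. Without WT replicate 1 the list held 7 calls and without WT replicate 3 it held 8, against 13 without Cdk8-/- replicate 2. The 4 genes that did not pass were Fgfrl1, Habp2, Nupr1 and Pnliprp2, with log2 fold changes between −0.08 and 0.81. A larger number of Paneth cells and more RNA per Paneth cell cannot be told apart in these bulk libraries.

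**Figure D2:**
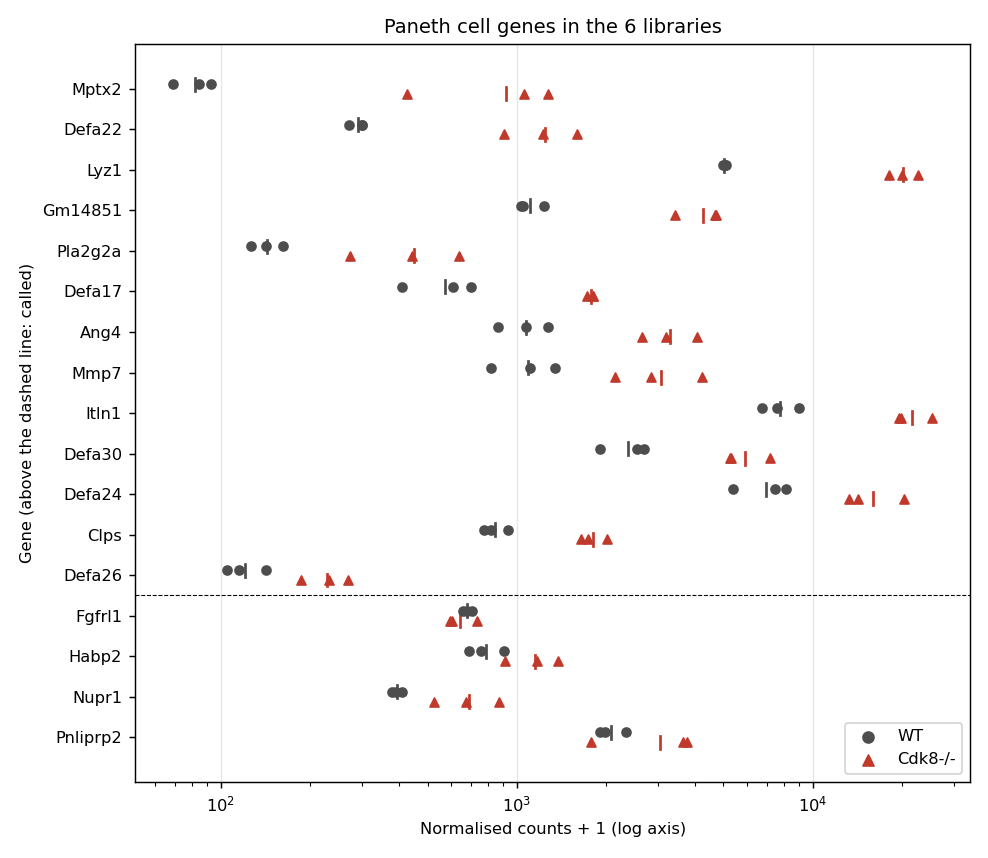
Normalised counts plus 1 (horizontal log axis) of the 17 Paneth cell genes tested (vertical axis) in the 3 WT libraries (circles) and the 3 Cdk8-/- libraries (triangles), with vertical bars at the group means. The 13 genes above the dashed line were called, and in each of them the 3 Cdk8-/- libraries lie to the right of the 3 WT libraries.

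The alpha-defensin genes, counted by symbol after their values had been seen, lie in a cluster on chromosome 8 and are close copies of each other, so reads that match several copies were not counted and the value of any single copy is uncertain. Of the 22 counted 11 passed the filter and 10 were upregulated, where 2.79% of all genes were upregulated. The log2 fold changes of the 11 ran from 0.80 to 3.04. Their summed normalised counts were 11692, 12689 and 8756 in WT and 36177, 27029 and 24301 in Cdk8-/- libraries. Without WT replicate 1 5 of them were called. The largest rise was that of Defa29, with 376, 451 and 252 in WT and 3609, 3110.0 and 2160.0 in Cdk8-/- libraries (log2 fold change 3.04, standard error 0.334, edgeR adjusted p = 5.00e-04). Other antimicrobial genes followed only in part. Ltf, which encodes the iron-binding protein lactoferrin, had 13.1, 14.4 and 12.5 against 73.5, 40.8 and 85.4 (log2 fold change 2.31, standard error 0.374, edgeR adjusted p = 0.0059), whereas Reg3g, the gene of a lectin that binds bacteria, had 4301, 4208 and 4137 against 3307, 1224 and 3582 and did not pass (log2 fold change −0.64, standard error 0.473, edgeR adjusted p = 0.475). In all, 5 of the 17 antimicrobial and regenerating protein genes tested were upregulated (29.4%, against 2.79% of all genes), 4 of them also in the Paneth cell list, and 0 were downregulated.

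Among targets of the coactivator YAP and genes of the regenerating epithelium, 12 of 26 were upregulated. The list has 27 genes, of which 26 passed the filter, and 0 were downregulated (46.2% called, against 5.15% of all genes), with a median log2 fold change of 1.01. The 12 include Spp1, Ankrd1 and Il33, which had few reads in WT and passed the filter through other libraries. Such genes had little room to be called lower. Ccn1, which encodes a matricellular protein and is a direct YAP target, reached 139, 158 and 162 normalised counts in WT against 506, 292 and 443 in Cdk8-/- libraries (log2 fold change 1.43, standard error 0.267, edgeR adjusted p = 0.0116). Ccn2, the gene of a related protein, had 29.2, 32.9 and 0 against 161, 73.4 and 206, and 1 WT library held no count (log2 fold change 2.82, standard error 0.723, edgeR adjusted p = 0.0452). Ankrd1, a YAP target, had 4.02, 2.05 and 4.17 against 50.3, 26.5 and 28.8 (log2 fold change 3.32, standard error 0.627, edgeR adjusted p = 0.0123). The 3 genes were higher in each Cdk8-/- library than in each WT library. Anxa1, which encodes annexin A1 and is expressed in repairing epithelium, had 402, 470.3 and 301 against 1368, 824 and 1975 (log2 fold change 1.83, standard error 0.408, edgeR adjusted p = 0.0254). Spp1, the gene of osteopontin, had 3 reads in all WT and 74 in all Cdk8-/- libraries, 23.9-fold higher per library size (exact 95% interval 7.88 to 118.7, which covers counting error only). Its edgeR adjusted p was 0.027, and in double knockout against Cdk19-/- libraries it was not called, with a log2 fold change of −2.23 and an edgeR adjusted p of 0.134. Il33, which encodes an epithelial alarmin, had 2.01, 6.16 and 8.35 against 12.1, 27.5 and 65.3 (log2 fold change 2.65, standard error 0.618, edgeR adjusted p = 0.0308).

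These rises were uneven across libraries. The summed counts of the list were 24888, 27845 and 28733 in WT and 53064, 31755 and 53791 in Cdk8-/- libraries, so the second Cdk8-/- library lay close to WT. The list held 15 calls without Cdk8-/- replicate 2, 6 without Cdk8-/- replicate 1 or 3, 5 without WT replicate 3 and 1 without WT replicate 1 or 2. When 1 library was left out, the highest edgeR adjusted p was 0.067 without WT replicate 1 for Ccn1, 0.0692 without WT replicate 2 for Ankrd1, 0.128 without WT replicate 1 for Ccn2, 0.104 without WT replicate 1 for Anxa1, 0.121 without WT replicate 1 for Spp1 and 0.135 without WT replicate 1 for Il33. Markers of other cell types were low. Of 8 fibroblast markers 4 were at 0 in all 6 libraries, Col1a1 had at most 5.13 normalised counts in any of them, and their sum was 212.9 to 335 in WT and 257 to 447 in Cdk8-/-. The sum of 8 muscle and neuron markers was 198 to 238 in WT, 248 and 215 in Cdk8-/- replicates 1 and 2, and 492 in replicate 3, and its part in these results was not tested.

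Genes activated by p53, the tumour suppressor that halts the cell cycle after DNA damage, were the third group with many rises. All 30 genes of the list passed the filter. Of these, 12 were upregulated and 1 downregulated (43.3% called, against 5.15% of all genes), and the median log2 fold change was 0.52. Cdkn1a, which encodes the cyclin-dependent kinase inhibitor p21 (chromosome 17, 29090976 to 29100727), reached 2060.2, 2274 and 1732 normalised counts in WT against 4161, 3815 and 4792 in Cdk8-/- libraries (log2 fold change 1.07, standard error 0.131, edgeR adjusted p = 0.00107). Gdf15, the gene of a stress-induced cytokine, had 100.5, 104 and 89.8 against 225, 209 and 202 (log2 fold change 1.11, standard error 0.166, edgeR adjusted p = 0.00362). Bax, which encodes a pro-apoptotic protein, had 1018, 955 and 937 against 1602, 1689.6 and 1571 (log2 fold change 0.74, standard error 0.114, edgeR adjusted p = 0.00439). In each of the 3 the groups were well apart compared with the spread within them, and each kept its call without any 1 library. Mdm2, the gene of the ubiquitin ligase that degrades p53, had 699, 740.3 and 715 against 1033, 1125 and 1245 (log2 fold change 0.66, standard error 0.093, edgeR adjusted p = 0.00263). Plk2, which encodes a stress-responsive kinase, had 305, 369 and 372 against 819.7, 665 and 919 (log2 fold change 1.20, standard error 0.169, edgeR adjusted p = 0.00263). Ptp4a3, a phosphatase gene, had 514, 566 and 489.5 against 1167, 946 and 1299.8 (log2 fold change 1.12, standard error 0.166, edgeR adjusted p = 0.00344). Ddb2, which encodes a DNA damage sensor, moved the other way, with 703, 646 and 593 against 493, 418 and 496 (log2 fold change −0.46, standard error 0.116, edgeR adjusted p = 0.0425), and its adjusted p was 0.171 without WT replicate 1. Trp53 itself had 3692, 3691 and 3922 against 4507, 4026 and 3772 and did not pass (log2 fold change 0.12, standard error 0.0897, edgeR adjusted p = 0.472). The number of upregulated members ran from 8 without WT replicate 1 to 13 without Cdk8-/- replicate 2, and the summed counts of all 30 genes of the list were 23977, 24352 and 24193 in WT against 34276, 33015 and 37455 in Cdk8-/- libraries.

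Goblet cells make the gel of the mucus layer, and 5 of their 22 genes were upregulated and 0 downregulated (22.7% called, against 5.15% of all genes), with a median log2 fold change of 0.55. Muc2, the gel-forming mucin (chromosome 7, 141690340 to 141754693), reached 2132, 2415 and 2286 normalised counts in WT against 4276, 4087 and 5143 in Cdk8-/- libraries, 1.98-fold higher on average (log2 fold change 0.98, standard error 0.163, edgeR adjusted p = 0.0071). It kept its call without any 1 library, with an adjusted p of at most 0.0453. Agr2, which encodes the disulphide isomerase needed to fold Muc2, had 2065, 2104 and 2073 against 4067, 4172 and 3378 (log2 fold change 0.90, standard error 0.177, edgeR adjusted p = 0.0152, and 0.0721 without WT replicate 1). Spdef, the gene of the transcription factor of goblet cell maturation, had 323, 354 and 333 against 587, 554 and 492 (log2 fold change 0.69, standard error 0.178, edgeR adjusted p = 0.0451, and 0.163 without WT replicate 1). Klk1, a kallikrein gene, and Creb3l1, which encodes a membrane-bound transcription factor, were the other members upregulated (log2 fold changes 0.99 and 0.59). The list held 1 call without WT replicate 1 or 2, 2 without WT replicate 3 or Cdk8-/- replicate 1 or 2, and 3 without Cdk8-/- replicate 3. Tff1, a trefoil peptide gene, had 2.01, 7.19 and 2.09 against 18.1, 10.2 and 57.6 and did not pass (log2 fold change 2.90, standard error 1.09, edgeR adjusted p = 0.147).

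Among membrane-bound mucins and enzymes that modify mucins, 3 of 23 genes tested were upregulated and 1 was downregulated (17.4% called, against 5.15% of all genes). When 1 library was left out, 1 to 4 were upregulated and 0 downregulated. Fut2, which encodes the fucosyltransferase of mucosal blood-group sugars, reached 62.3, 50.3 and 39.7 normalised counts in WT against 94.7, 137 and 208 in Cdk8-/- libraries (log2 fold change 1.53, standard error 0.28, edgeR adjusted p = 0.0109, and 0.0549 without WT replicate 2). Muc3, a mucin of the brush border, had 599, 576 and 434 against 720.0, 1046 and 1061 (log2 fold change 0.81, standard error 0.197, edgeR adjusted p = 0.0372, and 0.135 without WT replicate 3). A pair of O-glycosylation enzymes moved apart. Galnt3 had 898, 907 and 1055 against 1383, 1516 and 1652 (log2 fold change 0.67, standard error 0.106, edgeR adjusted p = 0.00501), and Galnt4 had 3038, 2965 and 2777 against 1989, 1796 and 1956 (log2 fold change −0.61, standard error 0.139, edgeR adjusted p = 0.027, and 0.111 without WT replicate 1). Muc13, the most counted of these mucins, had 15683, 16532 and 16544 against 20342, 18838 and 24160.4 and did not pass (log2 fold change 0.38, standard error 0.114, edgeR adjusted p = 0.0796). Gcnt4, a glycosyltransferase gene, did not pass either (log2 fold change 0.20, standard error 0.227, edgeR adjusted p = 0.662), nor did Nlrp6, an inflammasome sensor linked to mucus secretion (log2 fold change 0.40, standard error 0.222, edgeR adjusted p = 0.335).

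Of 27 genes of Cftr and ion transport, 1 was upregulated (3.7% called, near the 5.15% of all genes). It was Kcne3, which encodes a subunit of the potassium channel that supports chloride secretion, with 251, 239 and 215 normalised counts in WT against 493, 943 and 569 in Cdk8-/- libraries (log2 fold change 1.51, standard error 0.256, edgeR adjusted p = 0.00763), called without any 1 library. Cftr, the chloride channel gene, had 3715, 3614 and 2129 against 2520.5, 2814 and 1764. Its groups overlapped, since the third library of each was low, and the difference did not pass (log2 fold change −0.41, standard error 0.198, edgeR adjusted p = 0.254).

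Among the lists, genes of drug and steroid metabolism held the most falls. Cytochrome P450 enzymes oxidise drugs, fatty acids and hormones. Of the 26 P450 genes tested 6 were downregulated and 1 was upregulated, 19 did not pass (26.9% called, against 5.15% of all genes, of which 2.36% downregulated), and the median log2 fold change was −0.11. Cyp2c55 reached 2486, 2850.3 and 2924 normalised counts in WT against 1193, 373 and 643 in Cdk8-/- libraries (log2 fold change −1.90, standard error 0.408, edgeR adjusted p = 0.0217, and 0.0776 without Cdk8-/- replicate 3). Cyp2c29 had 1831, 2173 and 1924 against 1317, 405 and 579.8 (log2 fold change −1.36, standard error 0.326, edgeR adjusted p = 0.0347, and 0.108 without Cdk8-/- replicate 3). Cyp2b10, a target of the nuclear receptor CAR, had 6303, 6946 and 6466 against 4568, 2504 and 3106 (log2 fold change −0.95, standard error 0.237, edgeR adjusted p = 0.0405, and 0.116 without WT replicate 2). In these 3 genes the first Cdk8-/- library was the nearest to WT. Cyp1b1, a P450 induced by dioxin, went the other way, with 2.01, 6.16 and 13.6 against 39.3, 61.2 and 25.9 (log2 fold change 2.53, standard error 0.574, edgeR adjusted p = 0.0275, and 0.115 without WT replicate 1). The 6 falls became 1 without any 1 WT library, and 4, 2 and 3 without Cdk8-/- replicate 1, 2 and 3.

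The Cyp2c genes lie side by side on chromosome 19. Counted by symbol after their values had been seen, 10 of the 13 tested were downregulated and 0 upregulated, where 2.36% of all genes were downregulated. The 13 had a median log2 fold change of −1.36. Their sums were 15075, 16519 and 18792 in WT and 9907, 7421 and 8578 in Cdk8-/- libraries, and 4 were called without WT replicate 1 or 3, 5 without WT replicate 2 or Cdk8-/- replicate 3, 6 without Cdk8-/- replicate 2 and 7 without Cdk8-/- replicate 1. Cyp2c37 (chromosome 19, 39992424 to 40012243) fell most among those with 50 or more normalised counts on average, from 296, 376 and 387 to 40.3, 7.14 and 25.9, 14.4-fold lower on average (log2 fold change −3.84, standard error 0.408, edgeR adjusted p = 4.22e-04). Cyp2c70, which makes mouse-specific muricholic bile acids, had 1031, 1035 and 1532 against 434, 447 and 300.5 (log2 fold change −1.61, standard error 0.225, edgeR adjusted p = 0.00261). Both kept their call without any 1 library. Cyp2c65 and Cyp2c67 did not pass (−0.33 and 0.17). The genes are close relatives, and reads that match several of them were not counted.

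Conjugation and antioxidant enzymes make such compounds soluble or remove peroxides. Of 40 tested, 5 were downregulated and 3 upregulated (20% called, against 5.15% of all genes). Without any 1 WT library or without Cdk8-/- replicate 3, 3 were downregulated, and 0 were upregulated without WT replicate 1 or 2 and 1 without WT replicate 3 or Cdk8-/- replicate 3. Ces1g, a carboxylesterase gene, reached 216, 201 and 345 normalised counts in WT against 76.5, 66.3 and 79.7 in Cdk8-/- libraries (log2 fold change −1.77, standard error 0.337, edgeR adjusted p = 0.0125). Ces2a, another carboxylesterase gene, had 9971, 10339 and 10975 against 6992, 4668 and 4794 (log2 fold change −0.93, standard error 0.155, edgeR adjusted p = 0.0072). Ugt1a1, the gene of the transferase that clears bilirubin, had 1882, 2110.0 and 1809 against 1039, 960.5 and 1146 (log2 fold change −0.88, standard error 0.112, edgeR adjusted p = 0.00133). Each of the 3 was called without any 1 library. The rises were those of Gpx2, an intestinal glutathione peroxidase gene, with 1947, 1982 and 3077 against 4694, 5617 and 4036 (log2 fold change 1.03, standard error 0.188, edgeR adjusted p = 0.0106, and 0.0618 without WT replicate 1), and of Srxn1 and Adh6a (log2 fold changes 0.73 and 0.62, with highest edgeR adjusted p-values of 0.0777 without WT replicate 1 and 0.128 without WT replicate 3).

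Crypt and signalling genes changed in single members. Of 29 stem cell and Wnt genes 2 were downregulated and 1 was upregulated (10.3% called, against 5.15% of all genes). Without any 1 WT library or without Cdk8-/- replicate 3, 1 was downregulated, and without any 1 of the 6 libraries 0 were upregulated. Lgr5, the receptor that marks crypt stem cells (chromosome 10, 115450311 to 115587780), reached 6021, 6037 and 5595 normalised counts in WT against 3170.0, 3951 and 2607 in Cdk8-/- libraries (log2 fold change −0.86, standard error 0.148, edgeR adjusted p = 0.00801) and kept its call without any 1 library. Olfm4, the other marker most used for these cells, had 26207, 24394 and 21945 against 26737, 39389 and 23176, with overlap (log2 fold change 0.30, standard error 0.225, edgeR adjusted p = 0.482). Thus Lgr5 fell, whereas Olfm4 did not pass. Cd44, a Wnt target, was upregulated (log2 fold change 0.67, standard error 0.169, edgeR adjusted p = 0.0425, and 0.147 without WT replicate 1). Of 12 Notch pathway genes tested, Notch1 had 990.4, 957 and 940.3 against 679, 693 and 639 (log2 fold change −0.52, standard error 0.125, edgeR adjusted p = 0.0347, and 0.13 without WT replicate 1). Jag1, which encodes a Notch ligand, was upregulated (log2 fold change 0.47, standard error 0.116, edgeR adjusted p = 0.0405, and 0.14 without WT replicate 3), and Hes1, a Notch target, did not pass (log2 fold change −0.13, standard error 0.0795, edgeR adjusted p = 0.368).

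Genes of the cell cycle lists were not called. For the 28 genes of S phase the median log2 fold change was −0.07, and edgeR and DESeq2 each called 0, with 3 lower at an unadjusted p under 0.05. For the 28 genes of G2 and mitosis it was −0.06, again with 0 calls by either tool and 1 lower at an unadjusted p under 0.05. Myc reached 3752, 3859 and 3946 normalised counts in WT against 4447, 3892 and 3001 in Cdk8-/- libraries (log2 fold change −0.03, standard error 0.126, edgeR adjusted p = 0.931). For 25 genes of Myc and ribosome biogenesis, edgeR and DESeq2 called 0, with 1 higher at an unadjusted p under 0.05. For 24 transporters of amino acids and sugars edgeR called 0 and DESeq2 2, with 6 higher and 1 lower at an unadjusted p under 0.05, and for 11 ileal and bile acid genes edgeR called 0 and DESeq2 1, with 2 higher. Of 16 tuft cell genes edgeR and DESeq2 called 0, with 2 higher at an unadjusted p under 0.05, and the marker Dclk1 had 329, 317 and 213 against 463, 375 and 212. Of 27 enteroendocrine genes 1 was upregulated (3.7%, against 2.79% of all genes), Nts, the gene of the hormone neurotensin, with 26.1, 41.1 and 8.35 against 267, 128 and 289.9 (log2 fold change 3.17, standard error 0.449, edgeR adjusted p = 0.00267), called without any 1 library.

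Of 19 brush border hydrolases of enterocytes 2 were upregulated (10.5%) and of 23 genes of fat absorption 1 (4.35%), against 2.79% of all genes upregulated. In both lists 0 were called when any 1 library other than Cdk8-/- replicate 2 was left out. Anpep, an aminopeptidase gene, reached 13052, 14708 and 15159 normalised counts in WT against 32562, 16689 and 32956 in Cdk8-/- libraries (log2 fold change 0.94, standard error 0.218, edgeR adjusted p = 0.0307, and 0.135 without WT replicate 1). The other hydrolase gene called was Enpp3 (log2 fold change 1.55, standard error 0.354, edgeR adjusted p = 0.0279, and 0.121 without WT replicate 1). Apoa4, the gene of a chylomicron apolipoprotein, had 18045, 19049 and 12137 against 32791, 31213 and 40582 (log2 fold change 1.09, standard error 0.261, edgeR adjusted p = 0.0357, and 0.125 without WT replicate 3). Of 20 villus transcription factor genes 1 was upregulated and 2 were downregulated (15% called, against 5.15% of all genes), with 0 called without WT replicate 1. Ppard, a nuclear receptor of fatty acids, was upregulated (log2 fold change 0.64, standard error 0.115, edgeR adjusted p = 0.0097, and 0.0509 without WT replicate 1). Vdr, the vitamin D receptor, had 12556, 12817 and 11967 against 9815, 8106 and 6708 (log2 fold change −0.60, standard error 0.143, edgeR adjusted p = 0.0344, and 0.12 without WT replicate 1), and Thra, a thyroid hormone receptor, had 3180.3, 3092 and 3338 against 2364, 1937 and 2300.2 (log2 fold change −0.54, standard error 0.101, edgeR adjusted p = 0.0117, and 0.0522 without WT replicate 1). Of 21 NF-kB and inflammatory genes 2 were upregulated and 2 downregulated (19% called, against 5.15% of all genes), with a median log2 fold change of 0.40. The rises were those of Duox2, which encodes an oxidase that makes hydrogen peroxide (log2 fold change 1.60, standard error 0.392, edgeR adjusted p = 0.0384, and 0.143 without WT replicate 1), and Tnfaip3, an inhibitor of NF-kB (log2 fold change 0.60, standard error 0.149, edgeR adjusted p = 0.0411, and 0.16 without WT replicate 2). Without any 1 library other than Cdk8-/- replicate 2, 0 were upregulated. The falls were those of the chemokine genes Ccl28 and Ccl25, which attract lymphocytes to mucosa. Ccl28 had 1852, 1715 and 1717 against 1060.4, 1200.1 and 1297 (log2 fold change −0.57, standard error 0.0811, edgeR adjusted p = 0.00275), and Ccl25 had 6972, 7134 and 6317 against 5337, 4982 and 4968 (log2 fold change −0.42, standard error 0.083, edgeR adjusted p = 0.0155, and 0.0777 without WT replicate 1).

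Interferon-stimulated genes had a high median but no calls. All 45 of the list were tested with a median log2 fold change of 1.09, and edgeR called 0, while 16 were higher at an unadjusted p under 0.05 and DESeq2 called 7. Their summed counts were 20829, 21708 and 20627 in WT and 27403, 22061 and 42659 in Cdk8-/- libraries, so the difference rested mainly on the third Cdk8-/- library. Ifit1, an antiviral gene, had 59.3, 72.9 and 51.1 against 204, 101 and 533 (log2 fold change 2.19, standard error 0.677, edgeR adjusted p = 0.0867). Without Cdk8-/- replicate 2 edgeR called 3 of the 45. The sums also varied within the other genotypes, with 65700.1, 37549.6 and 25326 in Cdk19-/- and 28133, 36753 and 34834 in double knockout libraries. Of 22 antigen presentation genes 2 were upregulated, H2-Q1 and H2-Q2 (9.09% called, against 5.15% of all genes, log2 fold changes 1.63 and 0.85). Their highest edgeR adjusted p was 0.0969 without WT replicate 1 and 0.12 without WT replicate 1, and 0 of the list were called without WT replicate 1 or 3 or Cdk8-/- replicate 3.

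The largest single changes were taken from called genes whose mean over the 6 libraries reached 50 normalised counts and whose groups were separate (313 rises and 272 falls). Predicted genes, clones and pseudogenes were left out by their symbols, which removed 23 further rises and 51 further falls. By fitted fold change the largest rise under this rule was that of Esr1. Of the rises left out, the pseudogenes Gm13394 and BC064078, noted after their values were seen, had larger changes than the second gene of the ranking (log2 fold changes 7.70 and 5.99). That second gene, H2-Bl of the class I histocompatibility family, is itself annotated as a polymorphic pseudogene and was kept because of its symbol. It reached 34.2, 23.6 and 17.7 in WT and 381, 326 and 489.6 in Cdk8-/- libraries (log2 fold change 3.98, standard error 0.268, edgeR adjusted p = 8.05e-06). Fn1, the gene of fibronectin, had 24.1, 27.7 and 44.9 against 193, 251 and 222 (log2 fold change 2.78, standard error 0.424, edgeR adjusted p = 0.00417). Mcam, an adhesion molecule gene, had 52.3, 54.4 and 44.9 against 279.9, 251 and 355 (log2 fold change 2.54, standard error 0.255, edgeR adjusted p = 2.60e-04). These genes were low in WT and several times higher in each Cdk8-/- library. Pthlh, which encodes a peptide related to parathyroid hormone, had 49.3, 31.8 and 39.7 against 229, 208 and 117 (log2 fold change 2.19, standard error 0.287, edgeR adjusted p = 0.00169). Crip2, a LIM domain gene, had 22.1, 26.7 and 9.39 against 139, 71.4 and 145 (log2 fold change 2.6, standard error 0.436, edgeR adjusted p = 0.00726). The remaining rises of the 12 were Mptx2, Nts, Defa29 and Ccn2, given above, Slc14a1, a urea transporter gene (log2 fold change 2.32, standard error 0.532, edgeR adjusted p = 0.0288, and 0.101 without WT replicate 1), and Npl, which encodes a lyase of sialic acid (log2 fold change 2.22, standard error 0.521, edgeR adjusted p = 0.0319, and 0.104 without WT replicate 3).

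Of the falls left out by symbol, Gm43305 (chromosome 14, 54292443 to 54297456), a processed transcript noted after its values were seen, had a larger fall than any gene ranked. It went from 8093, 6838 and 10782 normalised counts in WT to reads of 0, 0 and 1 in Cdk8-/- libraries. The largest fall under the rule was that of Zfp990. This zinc finger gene (chromosome 4, 145510759 to 145539188) reached 169.9, 153 and 102 normalised counts in WT but 0 reads in each Cdk8-/- library, at least 142.9-fold lower when 3 counts over the group are taken as the floor. It had 88.6, 198 and 175 in Cdk19-/- and 0 in each double knockout library, and it was not called with Senexin B at 24 h (log2 fold change 0.11, edgeR adjusted p = 0.706). Cdk8 and the line of origin cannot be told apart for it. Eno1b, a copy of the enolase gene Eno1, had 477, 474 and 504 in WT and 15.1, 36.7 and 14.4 in Cdk8-/- libraries (log2 fold change −4.46, standard error 0.37, edgeR adjusted p = 6.87e-05), while Eno1 itself had 3163, 3407 and 3319 against 3683, 5151 and 2624, and reads cannot be placed with certainty between the 2 copies. Adgrf1, an adhesion receptor gene, had 139.8, 157 and 108 against 25.2, 21.4 and 28.8 (log2 fold change −2.42, standard error 0.268, edgeR adjusted p = 5.00e-04). Slc7a2, which encodes a transporter of arginine and lysine, had 282, 275 and 352 against 109, 104 and 83.5 (log2 fold change −1.62, standard error 0.183, edgeR adjusted p = 5.66e-04). Both were called without any 1 library. C1s1, a complement protease gene, Myh7, a myosin gene, Gamt, an enzyme gene of creatine synthesis, and Me3, a mitochondrial malic enzyme gene, completed the 12 with the P450 and Ces1g genes given above. Their log2 fold changes were −1.83, −1.73, −1.64 and −1.61, and their highest adjusted p-values were 0.128 without WT replicate 2, 0.0841 without Cdk8-/- replicate 1, 0.169 without WT replicate 1 and 0.133 without WT replicate 3.

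**Figure D3:**
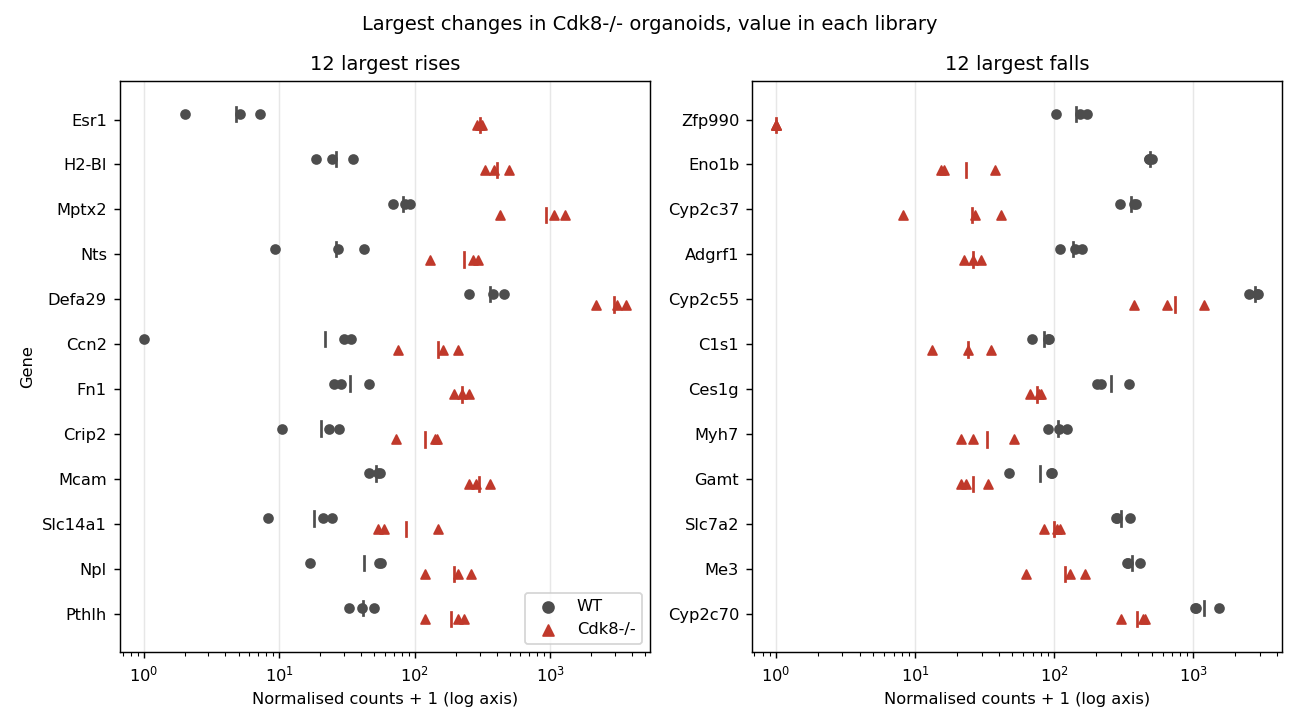
Normalised counts plus 1 (horizontal log axes) of the 12 genes with the largest rises (left) and the 12 with the largest falls (right) under the rule of the text in the 3 WT libraries (circles) and the 3 Cdk8-/- libraries (triangles), with vertical bars at the group means. The groups do not overlap, as the rule required, and Zfp990 sits at 0 counts (1 on the axis) in all Cdk8-/- libraries.

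Whether calls gathered around the deleted locus was counted next. Within 5 Mb of Cdk8 5 of 104 genes (4.81%) were called, namely Actb, Bhlha15, Slc46a3, Hmgb1 and B3glct, within 2 Mb 1 of 43 (2.33%) and within 10 Mb 9 of 207 (4.35%), against 5.15% of all genes. Hmgb1, which encodes a chromatin protein, reached 522, 455 and 390.3 normalised counts in WT against 212, 210.1 and 174 in Cdk8-/- libraries (log2 fold change −1.20, standard error 0.157, edgeR adjusted p = 0.00169). Of windows of 5 Mb with at least 25 genes tested, the densest were those from 35 to 40 Mb on chromosome 19, with 9 of 33 called (27.3%) and 7 of these Cyp2c genes, and from 20 to 25 Mb on chromosome 8, with 13 of 52 called (25%), where the alpha-defensin genes lie.

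Double knockout and Cdk19-/- libraries differ in the Cdk8 label in organoids with mutated Cdk19. They are 6 other libraries, but both comparisons take the filter and the spread from 1 model over all 12. Of the 804 calls 616 (76.6%) were called there in the same direction and 3 in the opposite one, where 25.3% of all 15602 genes were called. The 616 are 15.6% of the 3953 genes called there. With each comparison fitted on its own 6 libraries, 537 of 914 calls (58.8%) were called the same way and 6 the opposite way, where 19.2% of all genes were called. Upregulated genes recurred in 353 of 436 cases (81.0%) and downregulated genes in 263 of 368 (71.5%). In sign alone 777 of 804 (96.6%) went the same way. The groups differ in the Cre transgene in both comparisons, and Esr1 and Zfp990 reads divide the libraries the same way in both, so the Cdk8 deletion, the transgene and the line of origin cannot be told apart here either. In the libraries labelled Cdk19-/- replicate 1 and double knockout replicate 3, the counts of Cdk19 (729 and 773) were as high as in WT (711, 748 and 725), and the shared calls were 724 of 999 (72.5%) without the former and 681 of 946 (72.0%) without the latter.

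By list, 10 of the 13 Paneth cell genes called and all 13 p53 targets were called the same way in that comparison. So were 9 of 12 YAP and regenerative genes, 3 of 5 goblet cell genes and 2 of 7 P450 genes. Over all genes 14.4% were called higher there and 11.0% lower. Of the 26 P450 genes tested there, 10 were called higher and 2 lower, with a median log2 fold change of 0.39. Lyz1 had 4091, 4371 and 5195 normalised counts in Cdk19-/- and 13862, 29691 and 22579 in double knockout libraries, a log2 fold change of 2.28 and an edgeR adjusted p of 8.34e-05. Muc2 had 1588, 1186 and 1384 against 4789, 5235 and 7485, a log2 fold change of 2.07 and an edgeR adjusted p of 3.01e-05. Cyp2c37 had 178, 249.8 and 339.5 against 21.4, 27.6 and 35.9, a log2 fold change of −3.17 and an edgeR adjusted p of 3.31e-04. The 3 genes changed in the direction seen against WT. Other genes called against WT were not called there. Ccl28 had a log2 fold change of −0.10 and an edgeR adjusted p of 0.392, Ugt1a1 one of −0.18 and an edgeR adjusted p of 0.268 and Hk2, the hexokinase gene upregulated against WT (log2 fold change 0.86, standard error 0.183, edgeR adjusted p = 0.0212, and 0.0751 without WT replicate 3), one of −0.09 and an edgeR adjusted p of 0.754. A direct test of whether the effect differed between the Cdk19 backgrounds passed for 0 of the 102 named genes with edgeR, with 37 at an unadjusted p under 0.05 and 12 called by DESeq2. The lowest adjusted p was that of Muc2, whose rise was larger by a log2 difference of 1.09 with mutated Cdk19 (standard error 0.23, edgeR adjusted p = 0.0835).

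**Figure D4:**
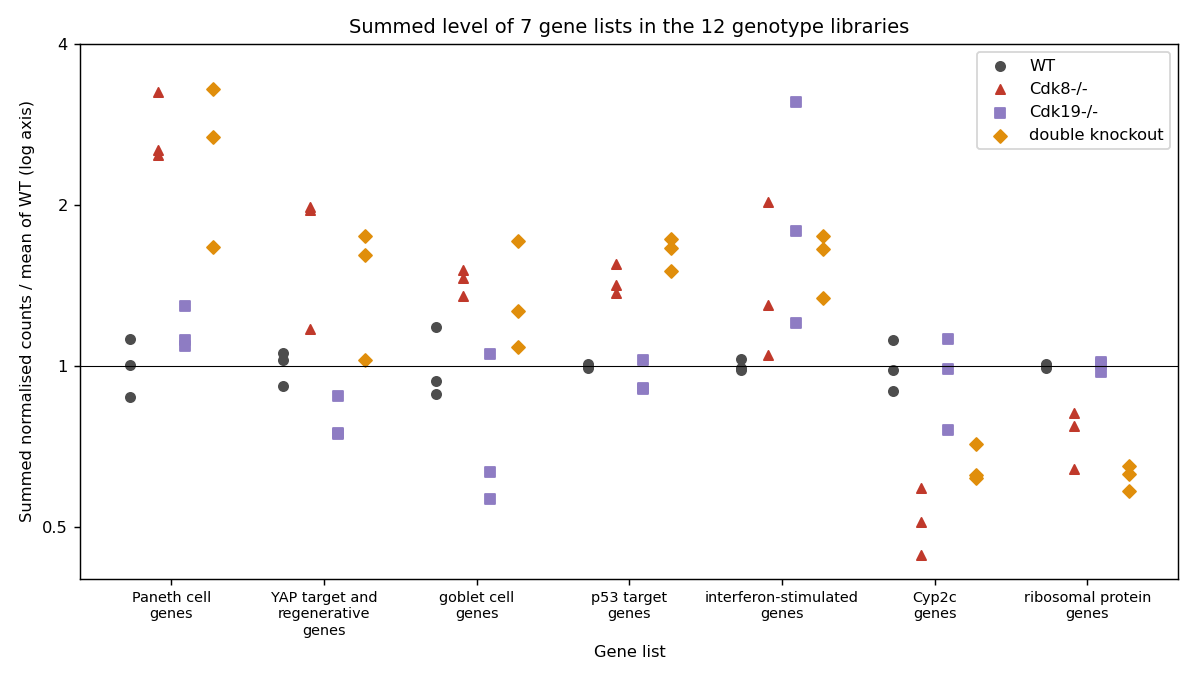
Summed normalised counts of 7 gene lists (horizontal axis) in each of the 12 genotype libraries, divided by the mean of the WT libraries (vertical log axis), with a symbol for each genotype. Paneth cell sums lie above all WT and Cdk19-/- libraries in each Cdk8-/- and double knockout library, and Cyp2c and ribosomal protein sums lie below them, whereas interferon-stimulated gene sums overlap.

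Senexin B gives a second way of losing the activity, without a change of line. Its libraries were made from RNA depleted of ribosomal RNA rather than from polyadenylated RNA, and 736 of the 804 genes were tested in them. At 16 h 118 (16.0%) were called in the same direction as in Cdk8-/- organoids and 25 (3.40%) in the opposite one, where 7.75% of all genes were called. Of genes upregulated in Cdk8-/- organoids 23% were called higher at 16 h, against 4.36% of all genes, and of downregulated genes 8.47% were called lower, against 3.39%. At 24 h 185 (25.1%) were called in the same direction and 104 (14.1%) in the opposite one, where 27.5% of all genes were called. Upregulated genes were called higher in 118 of 382 cases (30.9%, against 14.8% of all genes) and downregulated genes lower in 67 of 354 (18.9%, against 12.7%). Same-numbered Senexin B and DMSO libraries deviated together, and with the replicate number as a block the Senexin B model called 14.8% of all genes at 16 h (7.49% higher and 7.34% lower) and 36.9% at 24 h (19.3% higher and 17.6% lower). Of the 736 genes, 168 (22.8%) were then called the same way and 58 (7.88%) the opposite way at 16 h, and 229 (31.1%) and 139 (18.9%) at 24 h. Without WT replicate 1, which left 170 calls tested there, 33 (19.4%) were shared at 16 h and 55 (32.4%) at 24 h in the model without the block.

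Of the 13 p53 targets called in Cdk8-/- organoids 8 were called the same way at 24 h and 1 the opposite way, and of the 8 YAP and regenerative genes tested 6 the same way and 1 the opposite way. Gdf15 had a log2 fold change of 1.12 and an edgeR adjusted p of 0.00162 at 24 h, Bax one of 0.79 and an edgeR adjusted p of 1.32e-05 and Ccn1 one of 1.06 and an edgeR adjusted p of 6.53e-04. Cdkn1a was the opposite case among p53 targets, with −0.38 and an edgeR adjusted p of 0.0296. Of the 13 Paneth cell genes upregulated in Cdk8-/- organoids 0 were called higher and 10 lower at 24 h, and 0 and 3 at 16 h. With the block they were 0 and 11 at 24 h and 1 and 4 at 16 h. Lyz1 had a log2 fold change of −1.02 and an edgeR adjusted p of 0.00123 at 24 h, Itln1 one of −1.19 and an edgeR adjusted p of 6.81e-05 and Ang4 one of −0.95 and an edgeR adjusted p of 7.06e-04. Muc2 was not called at either time, with log2 fold changes of 0.08 and an edgeR adjusted p of 0.784 at 16 h and 0.13 and an edgeR adjusted p of 0.48 at 24 h. Agr2 rose at both, with 0.44 and an edgeR adjusted p of 0.0368 and 0.80 and an edgeR adjusted p of 3.88e-04. Lgr5 fell at 24 h as in the knockout, with −0.97 and an edgeR adjusted p of 1.12e-04, and so did Notch1, with −0.49 and an edgeR adjusted p of 0.00162. Cyp2c55 rose, with 1.03 and an edgeR adjusted p of 0.00225, and Cyp2c29 fell, with −2.16 and an edgeR adjusted p of 4.44e-05, although both fell in Cdk8-/- organoids. Whether an effect differed between knockout and inhibitor was not tested, since the experiments differ in RNA selection, strandedness and time.

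**Figure D5:**
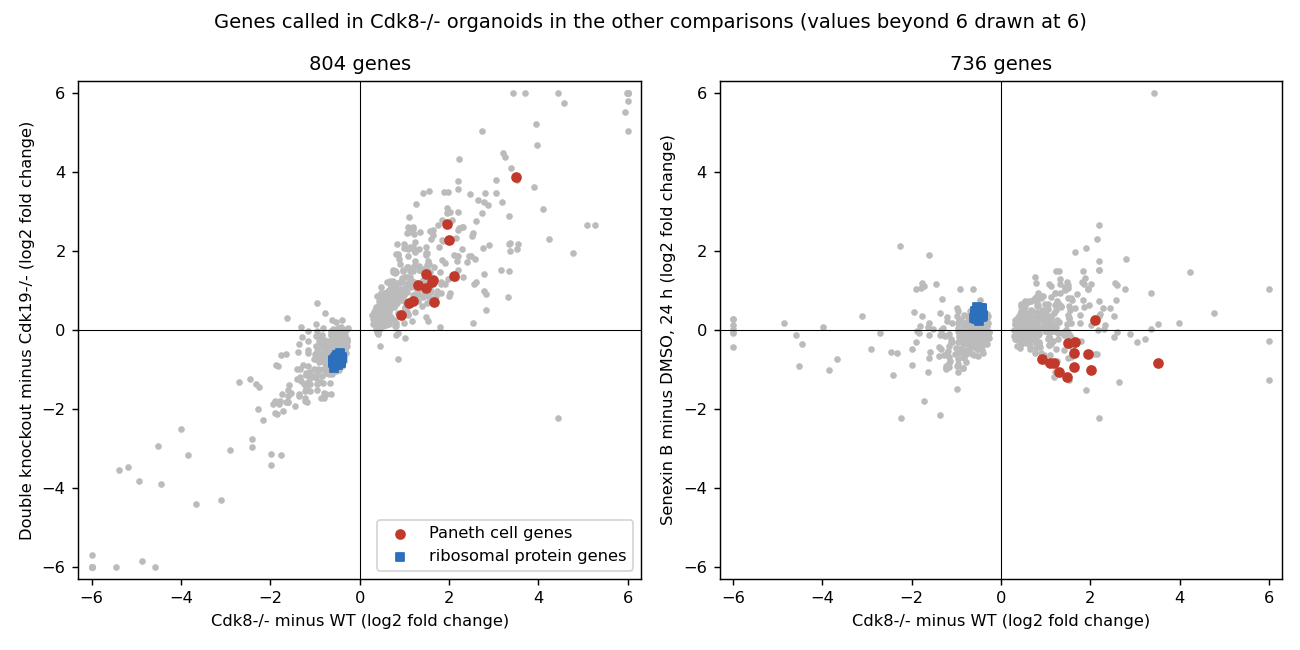
Log2 fold change of the genes called in Cdk8-/- against WT (horizontal axes) set against their log2 fold change between double knockout and Cdk19-/- libraries (left, 804 genes) and between Senexin B and DMSO at 24 h (right, 736 genes), with Paneth cell genes as red circles and ribosomal protein genes as blue squares. On the left 96.6% of the genes share their sign, and on the right most Paneth cell genes lie below 0 although they rose in the knockout.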

How the data were processed

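RNA of 24 organoid libraries was sequenced, and 6 of them (3 Cdk8-/- and 3 WT) form the comparison reported. Per the labels and the study's methods, the genotype libraries were oligo(dT)-selected, sequenced as single-end 50 bp reads and aligned with STAR to GRCm38 with Ensembl release 93 (version 2.6.0c in the submitters' processing notes). The authors deposited raw counts of uniquely mapped reads per gene, with 1 column per strand setting, so genes that share reads with copies are undercounted. The second-strand column was used. In the genotype libraries it held a median over genes of 49.6 to 49.8% of the reads in both strand columns together. Those reads carry no strand information, and overlapping antisense genes cannot be told apart. In the Senexin B and DMSO libraries this median was 91 to 94%, and the reads are stranded. Rows of unmapped, ambiguous and unassigned reads were left out.

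Genes were kept with filterByExpr (15602 of 54146), normalised with TMM and tested with edgeR 4.0.16 quasi-likelihood F tests in R 4.3.3 over all 12 genotype libraries in 1 model, with Benjamini-Hochberg adjustment over all genes tested and a threshold of 0.05. The 12 Senexin B libraries were fitted in a model of their own. Normalised counts are counts divided by the relative effective library size. Standard errors were derived from the F statistic. DESeq2 1.42.0 was run as an alternative, with its independent filter set to 0.05 after a first run at its default of 0.1. Other alternatives were the unstranded column, DESeq2 size factors, other filters, only the libraries compared, the replicate number as a block and leaving out each library. The tests were also run on simulated data, and the outcome is not given here. Deviations from the group means of same-numbered Senexin B and DMSO libraries correlated at 0.303, 0.101 and 0.11 at 16 h and 0.377, 0.137 and 0.187 at 24 h, each over 0.1, so those numbers were taken to pair the libraries, from the data and not the labels, and blocked values are given beside that comparison. In the genotype libraries the numbers did not pair them.

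Named are the genes of the kinase module, Esr1, genes the study discusses for organoid RNA, the 12 largest rises and falls under the rule given in the text, and up to 4 called genes of each list with the largest changes. Further list members are given as examples, chosen after their values were seen. The comparison, members and lists were chosen with earlier results of these data known. Sequences came from RefSeq tables of GRCm38.p6. The column of the other strand was not used. Results on some genes are not reported here.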

Additional observations from a re-analysis of the deposited data

How the results depend on the processing

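The 804 genes called rested on the libraries and the tool more than on the normalisation. With DESeq2 1294 genes were called and without a filter on low counts 1269. Genes changed beyond 2-fold, 301 with the settings reported, were 508 without a filter and 158 with a mean of at least 50 counts. Of the calls, those called the same way with Senexin B at 16 h (118) became 199 with DESeq2 and 222 without a filter, and those at 24 h (185) became 309 and 345. The 94 list genes called became 145 with DESeq2 and 179 without a filter. Within 2 Mb of Cdk8 2.33% of genes were called. The test of a different Cdk8 effect by Cdk19 background called 0 named genes with edgeR and 12 with DESeq2, a tool added to this test after seeing the data. With each comparison fitted on its own libraries, 537 of 914 calls were shared with double knockout against Cdk19-/-. Leaving out 1 library gave 196 to 699 genes called, 120 to 305 beyond 2-fold, 174 to 724 shared with double knockout against Cdk19-/-, 33 to 126 and 55 to 171 shared with Senexin B at 16 h and 24 h, and 30 to 91 list genes. A fit without 1 library tests with fewer samples, and without WT replicate 1 the counts were lowest. The cause of the other shifts was not tested. Of the 102 named genes tested 82 were called, 57 of these under all 7 settings with all libraries and 32 without any 1 library, and 0 reversed. The replicate number as a block gave 709 calls. Deviations from the group means of same-numbered WT and Cdk8-/- libraries correlated at 0.047, −0.14 and −0.057, and those of Cdk19-/- and double knockout at 0.121, 0.027 and 0.048, so these libraries share only a number. With the block in both models 156 and 218 of 649 calls were shared with Senexin B at 16 h and 24 h.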

Other observations

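Some gene families outside the lists were counted by symbol after their values had been seen, so their counts are descriptions. Of 76 genes of ribosomal proteins tested, from 81 counted, 26 were downregulated, 0 upregulated and 50 not called, where 2.36% of all genes were downregulated. Of the 76, 70 had a negative log2 fold change and the median was −0.37, against 0.01 over all genes. Their summed normalised counts were 292844, 294339.8 and 290146 in WT and 238071, 225827 and 187471 in Cdk8-/- libraries. The Cdk8-/- library with the lowest sum, the third, was also the one with the lowest share of reads mapped to several places, and the part of such reads in the falls was not tested. The number downregulated was 3, 7 and 11 without WT replicate 1, 2 and 3, and 26, 23 and 14 without Cdk8-/- replicate 1, 2 and 3. In double knockout against Cdk19-/- libraries all 26 were called lower, where 11.0% of all genes were called lower. With Senexin B at 24 h all 26 were called higher, as were 73 of the 76, where 14.8% of all genes were called higher. At 16 h 8 of the 76 were called higher, 1 of them among the 26, and 0 lower, where 4.36% of all genes were called higher. With the replicate number as a block 16 were higher, 4 of them among the 26, where 7.49% of all genes were called higher.

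Subunits of the V-ATPase, the proton pump of lysosomes and secretory granules, had 5 of 19 genes tested upregulated and 0 downregulated, where 2.79% of all genes were upregulated, with a median log2 fold change of 0.22, and 0 were called without WT replicate 1 or 2. Txnip, Mlxipl and Arrdc4 were chosen after their values were seen. Txnip, which encodes an inhibitor of thioredoxin and of glucose uptake, reached 28464, 29326 and 29101 normalised counts in WT against 17343, 9426 and 10395 in Cdk8-/- libraries (log2 fold change −1.23, standard error 0.225, edgeR adjusted p = 0.0109, and 0.0464 without WT replicate 1). Mlxipl, the gene of the glucose-responsive transcription factor ChREBP, had 9985, 8852 and 8548 against 5519, 4039 and 5936 (log2 fold change −0.82, standard error 0.14, edgeR adjusted p = 0.0078, and 0.0464 without WT replicate 1). Arrdc4, a relative of Txnip, had 2696, 2708 and 2971 against 2129, 1670.2 and 2128 (log2 fold change −0.50, standard error 0.111, edgeR adjusted p = 0.0251, and 0.0916 without WT replicate 3).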
